A study of Canis lupus familiaris with 51 samples.

Results

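Canine cutaneous mast cell tumors (MCTs) are graded under the microscope. In the Patnaik system, grade 1 (G1) tumors are well differentiated and lie in the superficial skin, while grade 2 (G2) tumors are of intermediate differentiation and can reach the deeper dermis and subcutis. The Kiupel system divides the same tumors into low and high grade. The data described here come from 13 reference tumors that the study classed as differentiated, 7 Patnaik G2 and 6 Patnaik G1, out of 51 MCTs on arrays. All 13 were Kiupel low grade, so the comparison asks how the Patnaik grades differ in RNA among tumors that the Kiupel system does not separate. The members were taken by their grade in the study's table of reference samples, matched to the tumor case names in the labels, and not by any measured level. Each tumor came from a different dog and was hybridized to 1 one-color Agilent canine array.

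The 7 G2 tumors were T48 (female Dogo Argentino, 10 years), T55 (male English Setter, 8 years), T64 (male Dogo Argentino, 4 years), T84 (female Boxer, 3 years), T100 (female Dalmatian, 4 years), T130 (male Boxer, 6 years) and T131 (male crossbred, 13 years). The 6 G1 tumors were T50 (female pit bull, 7 years), T62 (female crossbred, 10 years), T88 (female Boxer, 8 years), T92 (female Boston Terrier, 7 years), T101 (male Labrador Retriever, 9 years) and T112 (female Boxer, 5 years). All were spontaneous tumors with no experimental treatment, and the RNA came from a piece of the middle of the tumor mass taken at surgery. Such a piece holds mast cells together with skin, stroma, vessels and infiltrating cells. In a bulk sample, fewer cells of a type and less RNA per cell cannot be told apart.

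A mast cell stores histamine, heparin and the proteases chymase and tryptase in granules, carries the high-affinity IgE receptor and depends on the receptor tyrosine kinase KIT. Canine skin around such a tumor has an epidermis of keratinocytes. Basal keratinocytes make KRT5 and KRT14, and cells that leave the basal layer switch to KRT1, KRT10 and, in the upper layers, KRT2. Desmosomes, built from desmogleins, desmocollins and desmoplakin, hold these cells together.

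Levels below are log2 values of the quantile-normalized intensity, and a difference is the G2 mean minus the G1 mean on that scale, so that 1 unit is a doubling. Values follow ± as SD for a level and as standard error (SE) for a difference. Calls are made on limma p-values with Benjamini-Hochberg adjustment over all 43603 probes, at a limit of 0.05. On each array, 66.6% to 72.6% of spots were well above background. The sex-linked gene JARID1D (KDM5D), carried by the Y chromosome, was at 5.90 to 7.29 in the tumors labeled as female and at 10.4 to 11.1 in those labeled as male, as the labels give them. Males were 4 of 7 in G2 and 1 of 6 in G1.

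The main difference between the grades was a large block of epidermal RNA that was high in all 6 G1 tumors and lower in 6 of 7 G2 tumors, less so in T131. In all, 662 probes (1.52% of those tested) were called, of which 577 (1.32%) fell in G2 and 85 (0.195%) rose. The probes that fell had a median log2 difference of -2.32, and 507 of them differed at least 2-fold. Those that rose had a median of 0.68, and 10 of them differed at least 2-fold. Groups did not overlap at all for 222 of the called probes that fell and 61 of those that rose. The calls rest on the same difference in the same tumors, so this separation adds no support to them. Of all probes, 0.647% had every G2 tumor below every G1 tumor and 0.362% had every G2 tumor above.

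**Figure D1:**
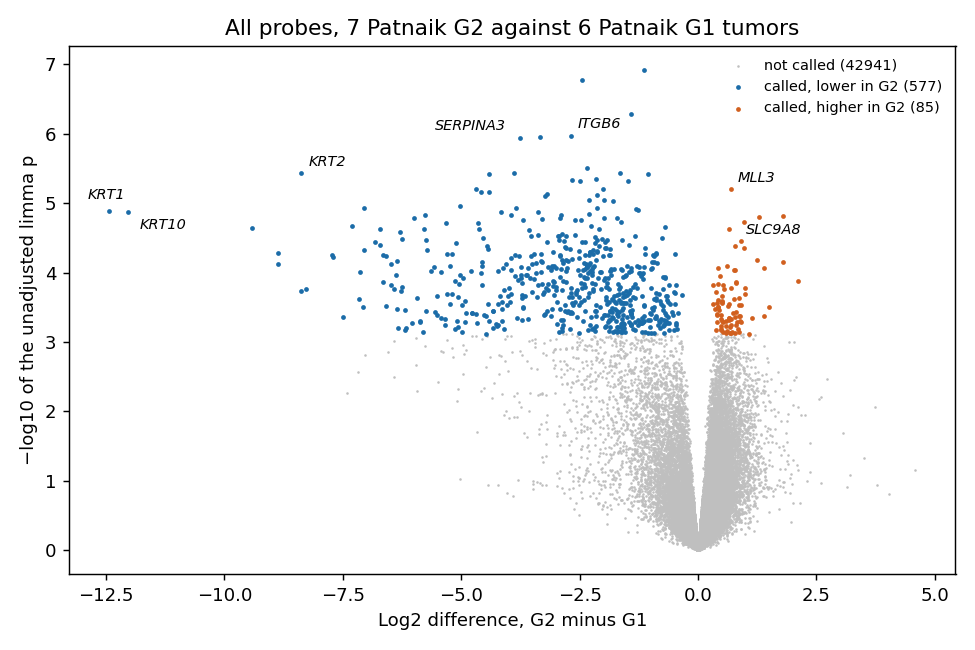
Log2 difference of each probe (x axis, G2 minus G1) against the −log10 of its unadjusted limma p (y axis), for 7 G2 and 6 G1 tumors. The 577 probes called lower reach a difference of -12.42, while the 85 called higher reach 2.11.

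The probes that carry these results are shown as the array holds them, 5′ to 3′, because each is the stretch of transcript that was measured. Each of the 7 is 60 bases long and has no stop codon when read from its first base. No capitals are used, since no part of a probe is set apart here.
KRT1 (chr27:5430687-5430746, plus strand): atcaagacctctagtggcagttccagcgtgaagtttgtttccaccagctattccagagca
KRT2 (chr27:5457998-5458057, plus strand): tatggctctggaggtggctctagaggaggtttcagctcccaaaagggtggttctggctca
KRT10 (chr9:25195305-25195364, plus strand): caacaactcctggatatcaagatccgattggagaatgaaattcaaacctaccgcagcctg
ITGB6 (chr36:8846611-8846670, minus strand): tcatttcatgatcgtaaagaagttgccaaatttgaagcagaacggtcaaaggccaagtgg
SERPINA3 (chr8:66636316-66636375, plus strand): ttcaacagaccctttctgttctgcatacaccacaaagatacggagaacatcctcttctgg
ZNF281 (chr7:5673851-5673910, plus strand): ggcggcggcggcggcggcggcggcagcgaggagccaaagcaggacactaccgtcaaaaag
PDE4B (chr5:47070497-47070556, minus strand): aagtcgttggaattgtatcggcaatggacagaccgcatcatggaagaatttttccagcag
The positions are those of the array's own annotation, and the build behind them is not given in the sources used here.

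Keratinocyte genes were lower in G2 throughout. Of 48 genes on the list, 31 were measured, all 31 had a negative difference and 17 passed the test, and the median log2 difference was -4.66. Over all 11689 named genes the median was 0.05, with 222 (1.9%) called lower and 21 (0.18%) called higher. KRT1, a keratin of the suprabasal layers, was between 15.54 and 17.81 (median 16.70) in the 6 G1 tumors. In G2 its lowest level was 2.02, its median 2.60 and its highest 14.71. The highest was T84, and the other 6 G2 tumors were all at or below 3.30, where the probe was not well above background. The log2 difference was -12.42 ± 1.8 (SE, limma adjusted p = 0.015).

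KRT10, the partner of KRT1 in the same filaments, was likewise high in G1 and T84 and low in the other 6 G2 tumors. It was at 14.30 to 16.55 (median 15.64) in G1, at 13.69 in T84 and at 1.59 to 2.52 in the other 6 G2 tumors (log2 difference -12.02 ± 1.75, SE, limma adjusted p = 0.015). KRT2, a keratin of the uppermost living layers, was at 13.48 to 16.36 (median 14.68) in G1 and at 4.97 to 5.95 in G2 without T84, which was at 12.41. Its log2 difference was -8.38 ± 1.07 (SE, limma adjusted p = 0.013), and its groups did not overlap.

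KRT5, the keratin of the basal layer, differed from these in how it spread within G2. Every G1 tumor was between 16.84 and 17.31. The 7 G2 tumors were spread over 1.63 in T64, 2.50 in T130, 9.23 in T100, 11.49 in T48, 11.87 in T55, 14.44 in T131 and 16.80 in T84. All 7 were below the lowest G1 tumor, but the call was missed (log2 difference -7.42 ± 2.21, SE, limma adjusted p = 0.14, unadjusted exact two-sided permutation p = 0.00524). Of the 5 probes for KRT5, whose log2 differences ran from -7.42 to -2.53, 2 passed the test.

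**Figure D2:**
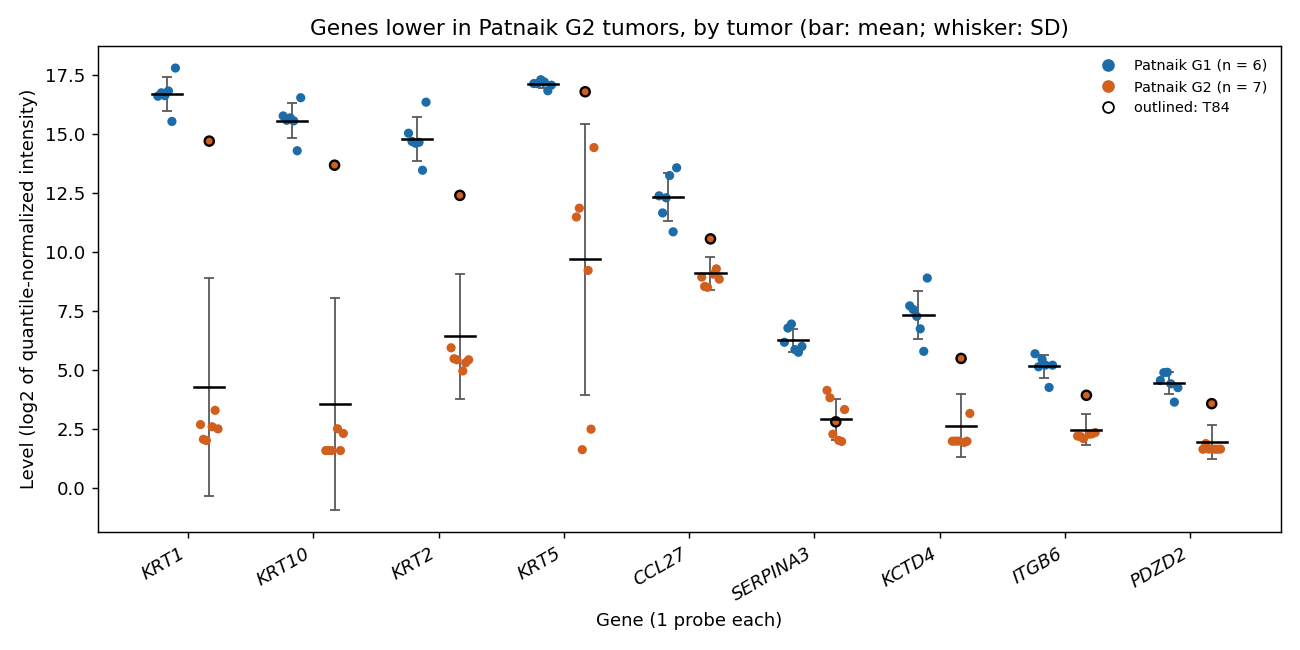
Level of 9 genes (y axis, log2 of the quantile-normalized intensity) in each of 6 G1 and 7 G2 tumors, with the mean as a bar, the SD as a whisker and T84 outlined. T84 lies closest to the G1 tumors for KRT1, KRT10, KRT2 and KRT5, at 14.71, 13.69, 12.41 and 16.80, and among the other G2 tumors for SERPINA3.

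Barrier and junction genes moved with the keratins. The following members were chosen after their values were seen. DSG1, a desmoglein of the upper epidermis, was at 10.17 to 11.68 in G1 and at 1.85 to 9.82 in G2, with a median of 1.92 (log2 difference -7.13 ± 1.27, SE, limma adjusted p = 0.019). SPINK5, an inhibitor of the proteases that shed the outermost cells, was at 13.24 to 14.48 in G1 and 6.32 to 13.10 in G2 (difference -6.30, adjusted p = 0.017). KRTDAP, a secreted protein of differentiating keratinocytes, was at 15.59 to 17.25 in G1 and 5.44 to 15.95 in G2 (difference -8.86, adjusted p = 0.018). In each of these 3, T84 was the highest G2 tumor, and for KRTDAP it lay inside the G1 range. The smallest keratinocyte difference was that of ITGB4, the hemidesmosome integrin that ties basal cells to the basement membrane, at -1.0 ± 0.30 (SE, limma adjusted p = 0.14).

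Averaged over the 31 keratinocyte genes, the level per tumor was 10.49 to 11.57 in G1. In G2 it was 4.58 in T130, 4.63 in T64, 5.11 in T100, 5.68 in T55, 5.73 in T48, 7.80 in T131 and 10.64 in T84. The groups overlapped through T84 alone. The other 38 tumors on arrays, which took no part in the comparison, covered a range as wide, from 4.27 to 12.66 with a median of 8.25.

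The remaining called probes were set against this keratinocyte level in those 38 tumors. Every probe named for a keratinocyte list gene was left out, which does not cover probes without a gene name. Of the 550 probes called lower that remained, 521 (94.7%) correlated with it above r = 0.5 across the 38 tumors, against 5.38% of all probes. Their median Pearson r was 0.86 (median Spearman rho 0.82), against -0.13 (rho -0.17) over all probes. The 85 probes called higher had a median r of -0.41 (rho -0.47), and 25 of them (29.4%) were below -0.5, against 3.63% of all probes. All of these points share the array platform and its normalization, and the correlations are a description of the 38 tumors.

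The 10 named genes with the smallest p among those lower in G2 included genes that are not keratins. SERPINA3, a serine protease inhibitor that acts on chymotrypsin-like proteases such as chymase, was at 5.76 to 6.96 (median 6.10) in G1 and 1.98 to 4.15 (median 2.81) in G2. These are the levels of the probe printed above, which was well above background in every G1 tumor and in no G2 tumor and was at least 7.52-fold lower (limma adjusted p = 0.0085). T84 was at the G2 median for this probe. The brighter second probe was well above background in 4 of 7 G2 tumors and differed by -3.86 (adjusted p = 0.018).

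ITGB6, the epithelial integrin subunit that binds fibronectin and latent TGF-beta, was at 4.27 to 5.70 in G1 and 2.10 to 3.94 in G2. It too was well above background in all G1 and no G2 tumors and was at least 4.09-fold lower (limma adjusted p = 0.0085). One probe of PDZD2, a protein with PDZ domains, was at least 2.68-fold lower (3.65 to 4.91 in G1, 1.65 to 3.58 in G2, limma adjusted p = 0.013). Its brighter probe was well above background in 3 of 7 G2 tumors and differed by -2.89 (adjusted p = 0.039). These bounds set the G1 mean against G2 levels raised, on each array, to at least the lowest signal among probes well above background.

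KCTD4 was at 5.80 to 8.91 in G1 and 1.94 to 5.50 in G2 and was above background in 1 G2 tumor (log2 difference -4.69 ± 0.63, SE, limma adjusted p = 0.014). CCL27, the chemokine that keratinocytes make to draw T cells into the skin, was at 10.87 to 13.58 in G1 and 8.52 to 10.57 in G2 (difference -3.23 ± 0.45, SE, limma adjusted p = 0.014). SLC25A31, an ADP/ATP carrier of mitochondria, differed by -1.99 (adjusted p = 0.015), TUFT1 by -1.27 (0.015) and BAIAP2, an adaptor between membrane and actin, by -1.06 (0.013). The groups did not overlap for any of the 10, which largely follows from their choice by p. T84 was above the other G2 tumors in all 10 genes but SERPINA3.

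ZNF281, a zinc finger repressor, was read by 2 probes that disagreed. The probe printed above was at 15.29 to 16.65 in G1 and 14.42 to 15.11 in G2 (log2 difference -1.47 ± 0.19, SE, limma adjusted p = 0.013), while the second probe differed by 0.11 (adjusted p = 0.78). The change of this gene is therefore uncertain.

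Genes that rose in G2 did so by small amounts, with tight groups. MLL3 (KMT2C), a histone H3 lysine methyltransferase of enhancers, was at 7.22 to 7.49 (median 7.33) in G1 and 7.83 to 8.37 (median 7.98) in G2. All 7 G2 tumors, T84 included, were above all 6 G1 tumors (log2 difference 0.69 ± 0.09, SE, limma adjusted p = 0.014). SLC9A8, a sodium/proton exchanger of the Golgi, was at 8.06 to 8.64 in G1 and 8.75 to 9.26 in G2 (0.66 ± 0.10, SE, limma adjusted p = 0.016). VPS35L, a subunit of the retriever complex that recycles membrane proteins, was at 6.48 to 7.28 in G1 and 7.45 to 7.92 in G2 (0.91 ± 0.15, SE, limma adjusted p = 0.018). Its second probe differed by 0.26 (adjusted p = 0.61).

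PDE4B, a phosphodiesterase that breaks down cAMP in immune cells, was at 4.06 to 4.77 in G1 and 5.00 to 5.49 in G2 (0.79 ± 0.13, SE, limma adjusted p = 0.018). T84 was at 5.38, among the highest. RNF19A, a ubiquitin ligase, rose by 0.78 (adjusted p = 0.019), but its second probe differed by 0.39 (0.41). TRUB1, a pseudouridine synthase, rose by 0.81 (0.023), FBXO4, a substrate adaptor of a ubiquitin ligase, by 0.53 (0.023), and CRYZL1 by 0.31 (0.023). The transcription factor RFXDC2 (RFX7) rose by 0.46 (0.02) and PHF21A, a reader of unmethylated histone H3, by 0.43 (0.019). Groups did not overlap for any of the 10, which largely follows from their choice by p. Other probes of 4 of these genes had positive differences that did not pass the test. They differed by 0.51 (0.15) and 0.41 (0.31) for TRUB1, by 0.26 (0.40) for CRYZL1, by 0.33 (0.25) and 0.42 (0.089) for RFXDC2, and by 0.42 (0.069), 0.36 (0.11) and 0.27 (0.48) for PHF21A.

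**Figure D3:**
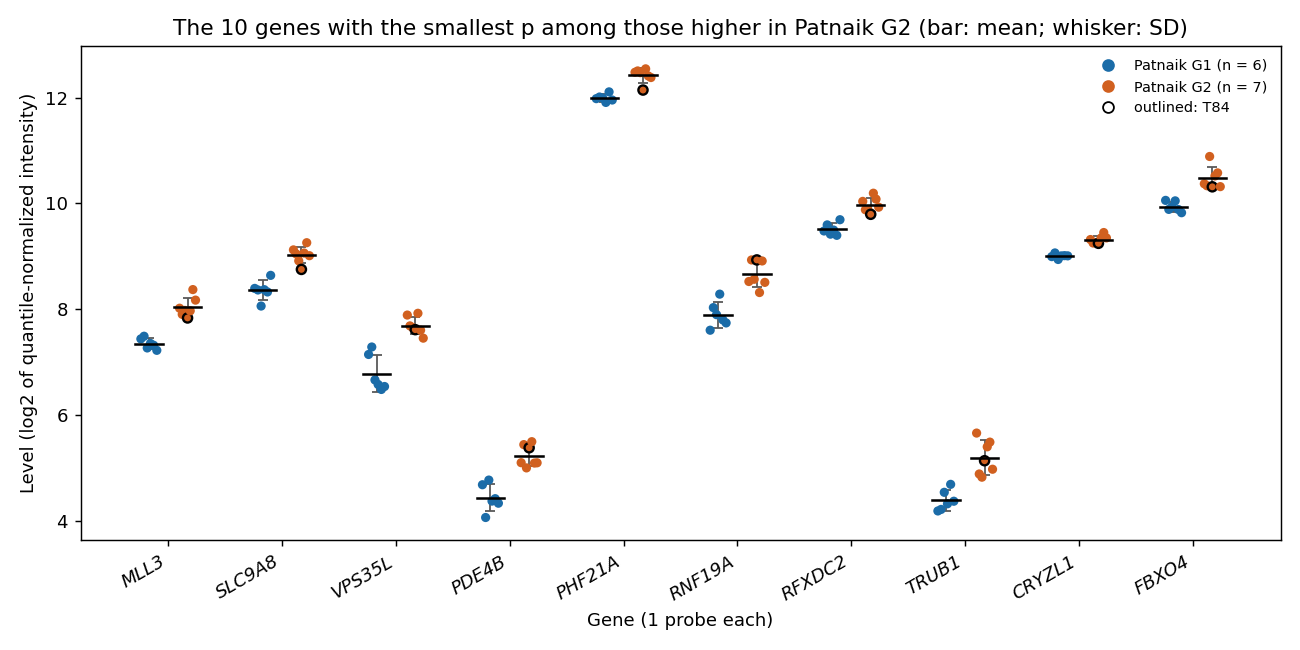
Level of the 10 named genes with the smallest p among those higher in G2 (y axis, log2 of the quantile-normalized intensity), in 6 G1 and 7 G2 tumors, with the mean as a bar, the SD as a whisker and T84 outlined. Differences lie between 0.31 for CRYZL1 and 0.91 for VPS35L, and no group overlaps the other.

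T84 stood apart from the other G2 tumors across the called probes that fell. It was nearer to the G1 mean than to the mean of the other 6 G2 tumors in 83.2% of the 577 probes that fell and in 16.5% of the 85 that rose, against 60.4% of all probes. T84 counted as G2 when the probes were called, which favors probes where it lies with G2. The low share among probes that rose is therefore no independent trait of T84. Its median correlation over all probes was 0.979 with the G1 tumors and 0.963 with the other G2 tumors. T84, T130 and T131 are the G2 tumors in which the study counted mitoses. Without T84, 1315 probes were called, 1055 lower and 260 higher, and 653 of the 662 were among them.

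On the first component of the 13 tumors, which held 32.0% of the variance, T84 was at 55.5, next to the G1 tumors T101 at 61.2 and T92 at 62.7. The other 6 G2 tumors were between -130.4 and -17.9. T112, a G1 tumor, was at 6.78 and shared the high end of the second component (13.8%) with the G2 tumor T130, at 100.8 and 99.6. G2 tumors varied more than G1 tumors: the median SD of a probe was 0.38 in G2 and 0.30 in G1, over 30733 probes well above background on at least 6 arrays.

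**Figure D4:**
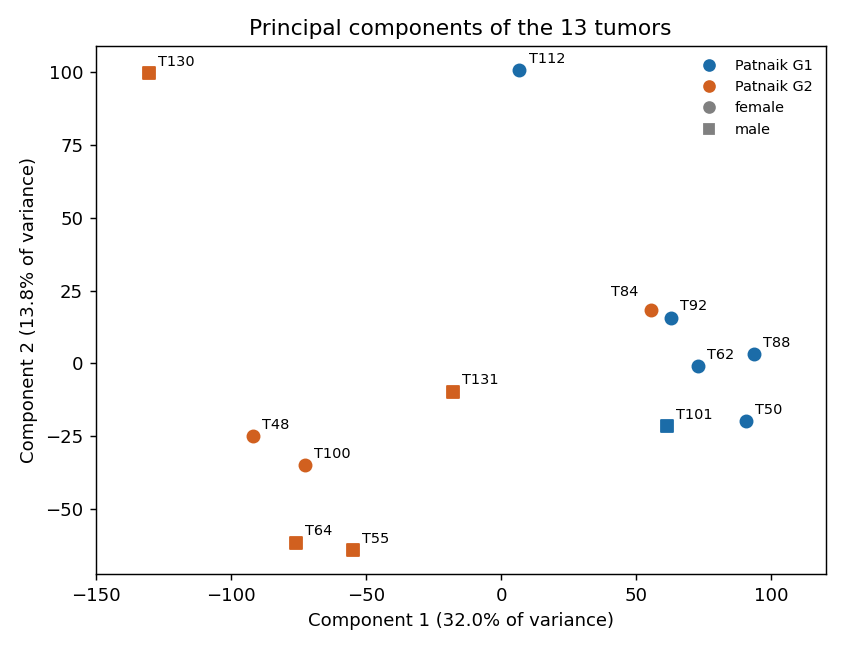
Scores of the 13 tumors on the first (x axis, 32.0% of variance) and second (y axis, 13.8%) principal components of all probes without missing values, colored by Patnaik grade and shaped by sex. T84 lies at 55.5 on the first component among G1 tumors, and T112 and T130 lie apart at the top.

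Mast cell genes were measured at high levels in both grades and did not pass the test in either direction. Of 23 genes measured, 22 had a positive difference and 7 of these an unadjusted limma p under 0.05, against 7.94% of all named genes and 7.47% of all probes higher at that limit, with a median difference of 0.39. A positive difference was found for 6854 of all 11689 named genes. KIT was at 12.41 to 13.76 in G1 and 12.47 to 13.84 in G2 (difference 0.15 ± 0.25, SE, limma adjusted p = 0.84). CMA1, the chymase, differed by 0.16 (0.87) and MS4A2, the beta chain of the IgE receptor, by 0.48 (0.50). FCER1A, its alpha chain, was at 15.91 to 17.02 in G1 and 16.34 to 17.05 in G2 (0.40 ± 0.17, SE, limma adjusted p = 0.33, unadjusted exact two-sided permutation p = 0.0449). The largest was STX11 at 0.98, a syntaxin of secretory cells, and the lowest SLC6A4, the serotonin transporter, at -1.35. The mean mast cell level per tumor was 11.60 to 12.86 in G1 and 12.14 to 12.72 in G2, and the list median was 0.11 with the keratinocyte level as a covariate.

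Proliferation genes did not separate the grades. Of 63 measured, 31 were higher and 32 lower, 0 were called and 7 had an unadjusted limma p under 0.05 in either direction, against 15.8% of all named genes. The median difference was 0.00. CDC2 (CDK1), the mitotic kinase, was at 5.93 to 8.74 in G1 and 6.47 to 9.63 in G2 (difference 0.03 ± 0.50, SE, limma adjusted p = 0.99). CCNA2, its cyclin partner, differed by -0.19 (0.92) and TOP2A, which untangles DNA before division, by -0.50 (0.73). The extremes were KIF2C, a microtubule-depolymerizing kinesin, at 0.59 (0.074) and ZWINT, a kinetochore protein, at -1.24 (0.25). T84 had the highest mean proliferation level, 8.11, against 6.19 to 7.53 in G1 and 6.18 to 7.29 in the other G2 tumors. Without T84, the differences were -0.29 for CDC2, -0.47 for CCNA2, -0.81 for TOP2A, 0.59 for KIF2C and -1.49 for ZWINT. None of them passed the test.

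The same held for the study's marker genes, which were chosen to tell undifferentiated from differentiated tumors. The study made that choice with all the tumors compared here as its differentiated class. Genes that vary little within a class are favored by such a choice. The lack of a grade difference in these markers is therefore no independent result. Of 12 measured, 5 were higher and 7 lower, 0 were called and 2 had an unadjusted limma p under 0.05, against 15.8% of all named genes. NUF2 of the kinetochore differed by less than 0.01 (adjusted p = 1), CENPP of the centromere by 0.01 (1) and CDCA8 of the chromosomal passenger complex by 0.14 (0.88). UBE2S, which extends ubiquitin chains for the anaphase-promoting complex, was at 10.43 to 11.04 in G1 and 10.16 to 10.70 in G2 (-0.31 ± 0.13, SE, limma adjusted p = 0.30, unadjusted exact two-sided permutation p = 0.0291). KPNA2, a nuclear import receptor, differed by -0.27 (0.35), FEN1, the flap endonuclease of replication, by -0.16 (0.62) and FOXM1, a transcription factor of mitotic genes, by -0.26 (0.85). The actin-severing protein gelsolin (GSN) was at 17.58 to 18.00 in G1 and 17.44 to 18.27 in G2 (0.11, 0.74). The mean level of the 12 markers was highest in T84, at 10.22. It was 8.61 to 9.81 in G1 and 8.39 to 9.46 in the other G2 tumors.

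**Figure D5:**
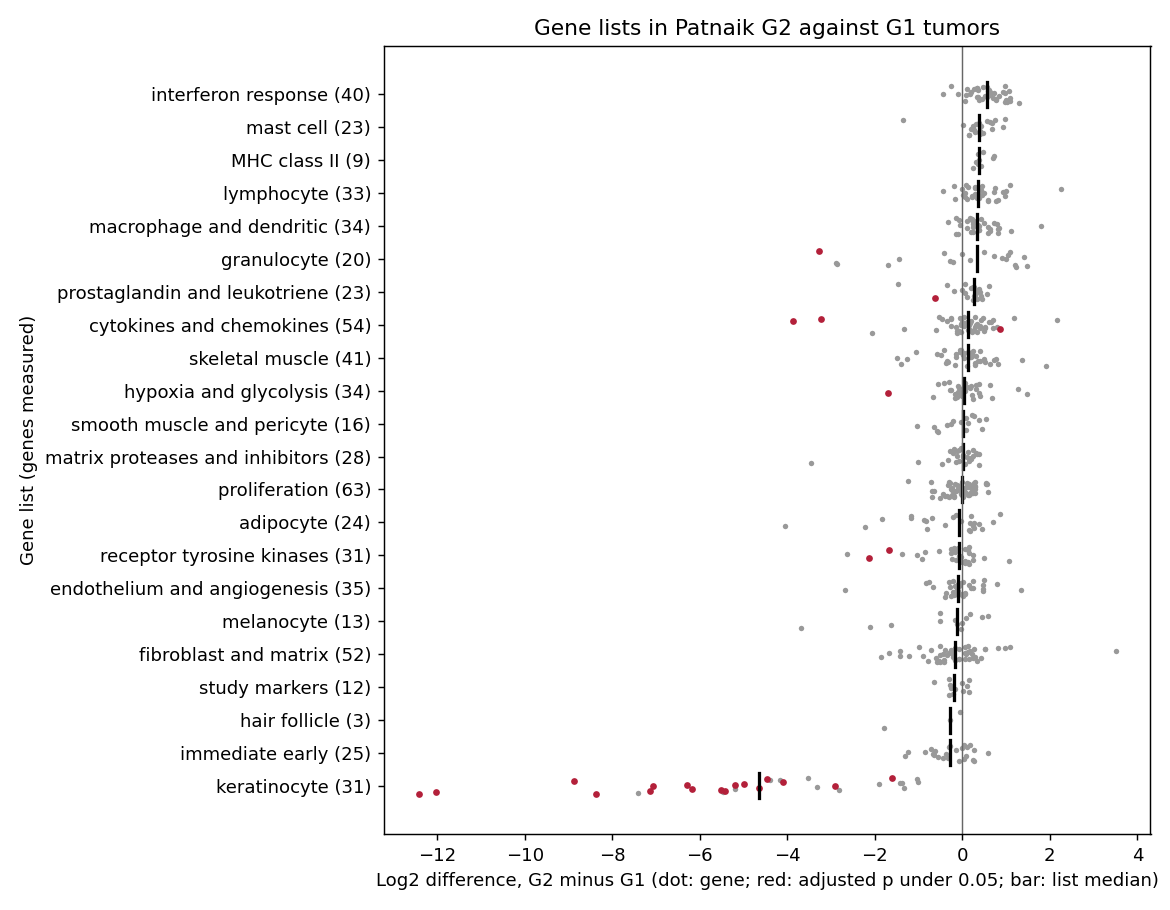
Log2 difference (x axis, G2 minus G1) of each measured gene of 22 lists (y axis, with the number of genes measured), with the list median as a bar and called genes in red. The keratinocyte list lies apart at a median of -4.66, while the other medians lie between -0.28 and 0.56.

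Interferon-stimulated genes had mostly positive differences, none of which passed the test. Of 40 measured, 37 were higher and 11 had an unadjusted limma p under 0.05, with 0 called and a median difference of 0.56. Over all named genes, 6854 of 11689 were higher, and 7.94% were higher at that limit. IFI44 was at 8.10 to 10.09 in G1 and 9.51 to 11.20 in G2 (1.09 ± 0.37, SE, limma adjusted p = 0.20). MX1, which blocks viral replication, ranged widely in both grades, 8.16 to 10.91 in G1 and 8.49 to 12.63 in G2 (1.29 ± 0.74, SE, limma adjusted p = 0.50), and MX2 differed by 0.97 (0.41). IFI6 differed by 0.05 (0.95), and STAT2, which carries the signal from the interferon receptor, was the lowest at -0.45 (0.67).

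Genes of infiltrating leukocytes also had mostly positive differences. These were found for 29 of 33 lymphocyte genes (median 0.35), 28 of 34 macrophage and dendritic cell genes (0.34) and 9 of 9 MHC class II genes (0.39), and 0 genes of these lists were called. At an unadjusted limma p under 0.05, 3, 7 and 0 of them were higher, against 7.94% of all named genes. Positive differences were found for 6854 of all 11689 named genes. CD3D and CD3E, chains of the T cell receptor complex, differed by 0.77 (0.47) and 0.59 (0.42). MS4A1 (CD20), a B cell marker, was at 1.82 to 4.76 in G1 and 2.41 to 7.13 in G2 (2.25 ± 0.76, SE, limma adjusted p = 0.19). ITGAM, an integrin of myeloid cells, differed by 1.12 (0.23), the scavenger receptor CD163 by 0.81 (0.44), CD14 by -0.10 (0.83) and DLA-DRB1 by 0.24 (0.65).

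Granulocyte genes were divided, with 11 higher and 9 lower of 20 measured. Over all named genes, 1.9% were called lower and 0.18% called higher. IL1R2, the decoy receptor for interleukin 1, was the one called gene of the list, at 10.48 to 12.39 in G1 and 6.61 to 10.44 in G2 (-3.28 ± 0.56, SE, limma adjusted p = 0.019), and its call held in 17 of 28 other settings. The alarmins S100A8 and S100A9, named after their values were seen, did not overlap between the groups (10.38 to 15.70 against 7.34 to 10.37, and 10.03 to 14.80 against 7.05 to 10.01), but missed the call (adjusted p = 0.12 and 0.091). The eosinophil receptors IL5RA and CCR3 had positive differences of 1.23 (0.35) and 1.48 (0.52).

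Among 54 cytokines and chemokines, 3 were called, against 1.9% of all named genes called lower and 0.18% called higher. CCL20, which draws CCR6-bearing cells to epithelia, was at 6.21 to 10.03 in G1 and 3.35 to 7.02 in G2 (-3.87 ± 0.70, SE, limma adjusted p = 0.02), and CCL27 was given above. The CCL20 call held in 19 of 28 other settings. IL16, a chemoattractant for CD4 cells, rose from 11.16 to 12.21 in G1 to 12.06 to 13.13 in G2 (0.86 ± 0.19, SE, limma adjusted p = 0.049), and the call held in 6 of 28 other settings (adjusted p = 0.054 without T84). Its second probe differed by 0.87 but missed the call (adjusted p = 0.25). IL1A, stored by keratinocytes, differed by -2.05 (0.078).

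Of 31 receptor tyrosine kinases, 2 were called and both fell, against 1.9% of all named genes called lower. ERBB3, a receptor for neuregulins, was at 6.48 to 7.27 in G1 and 3.46 to 6.19 in G2 (-2.13 ± 0.34, SE, limma adjusted p = 0.018). DDR1, a collagen receptor of epithelia, was at 10.89 to 11.35 in G1 and 8.69 to 10.89 in G2 (-1.68 ± 0.32, SE, limma adjusted p = 0.024). Other DDR1 probes differed by -1.52 (adjusted p = 0.025) and by -0.84 (0.20), the last of which missed the call. ERBB3 and DDR1 were named after their values were seen, and their calls held in 20 and 17 of 28 other settings. FGFR2, whose epithelial form answers to fibroblast growth factors of the dermis, differed by -2.63 (0.091). FLT3 was the highest at 1.06 (0.24), and PDGFRA differed by 0.06 (0.96).

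Prostaglandin and leukotriene genes were mostly higher (18 of 23, median 0.27), with 1 called, PTGES2, a prostaglandin E synthase, which fell from 6.40 to 7.10 in G1 to 5.82 to 6.43 in G2 (-0.62 ± 0.13, SE, limma adjusted p = 0.041). PTGS1 and PTGS2, the cyclooxygenases, differed by 0.25 (0.78) and 0.34 (0.88), PTGES by 0.45 (0.55) and PLA2G4A, which frees arachidonic acid, by 0.60 (0.22). Of 34 hypoxia and glycolysis genes, 1 was called, the glucose transporter SLC2A1, which fell by 1.71 on the log2 scale (10.96 to 12.85 in G1, 8.96 to 11.04 in G2, limma adjusted p = 0.049). A second SLC2A1 probe differed by -1.63 but missed the call (adjusted p = 0.074). HIF1A differed by 0.24 (0.24). For both lists, the 1 call stands beside 1.9% of all named genes called lower and 0.18% called higher. Over all named genes, 6854 of 11689 had a positive difference. The PTGES2 call held in 12 and the SLC2A1 call in 9 of 28 other settings, with 4 and 1 of the 13 that leave out a tumor among them.

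No gene was called by limma on the stromal lists, and at an unadjusted limma p under 0.05 there were 5 of 52 fibroblast, 1 of 28 protease, 3 of 35 endothelial, 2 of 16 smooth muscle and 5 of 41 skeletal muscle genes in either direction, all shares below the 15.8% of all named genes. Of 52 fibroblast and matrix genes, 21 were higher and 31 lower (median -0.17). The collagens COL1A1 and COL3A1 differed by -0.57 (0.73) and -0.50 (0.75), with T130 far below the other tumors at 12.22 and 12.63. SFRP2, a secreted modulator of Wnt signals, had the largest positive difference of the list, 3.50 ± 1.58 (SE, limma adjusted p = 0.36), with 2 G1 tumors (T50 and T62) at 2.85 and 1.99 and all others above 9.7, and TNC the lowest, -1.86 (0.35). Medians were 0.01 for 28 matrix proteases and inhibitors, where MMP7, an epithelial metalloproteinase, differed by -3.45 (0.058). They were -0.10 for 35 endothelial, 0.03 for 16 smooth muscle and pericyte and 0.13 for 41 skeletal muscle genes.

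Cells of the hair follicle, fat and pigment were read from their own lists, again with 0 called by limma and 1 of 3, 3 of 24 and 1 of 13 genes at an unadjusted p under 0.05 in either direction, against 15.8% of all named genes. The 3 hair follicle genes measured had a median of -0.28, 24 adipocyte genes -0.08 and 13 melanocyte genes -0.12. CIDEA, a lipid droplet protein of fat and sebaceous cells, was at 8.44 to 13.84 in G1 and 5.64 to 13.72 in G2 (-4.05 ± 1.33, SE, limma adjusted p = 0.18), with T112 the lowest G1 tumor and T84 the highest G2 tumor, while ADIPOQ differed by 0.17 (0.96). TYRP1, a melanin enzyme, was at 4.39 to 9.05 in G1 and 1.83 to 9.83 in G2, with a G2 median of 1.87 (-3.68 ± 1.38, SE, limma adjusted p = 0.25). Of 25 immediate early genes, 0 were called, 5 had an unadjusted limma p under 0.05 and 16 were lower (median -0.28), with FOS at 0.27 (0.92) and EGR3 at -1.30 (0.33).

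The number of called probes changed with the design. With sex as a covariate 5 probes were called, and with slide or scan session as a fixed block 1 each, while the median difference of the 577 probes went from -2.32 to -2.06 and -2.24. The slides and sessions that held both grades numbered 4 and 3. With the keratinocyte level of each tumor as a covariate, chosen after seeing the data, 12 probes were called, none of them among the 662, and the median difference of the 577 was -0.52. Apart from T84, that level did not overlap between the grades, so the fit can hardly separate it from grade. With normexp background correction the median difference was -1.04 for the 577 probes and 0.39 for the 85, and -2.89 for the keratinocyte list. Leaving out 1 G1 tumor, 35 probes were called without T62, 51 without T88, 84 without T92, 89 without T50, 524 without T101 and 761 without T112. Leaving out 1 G2 tumor, 323 were called without T100, 335 without T55, 337 without T48, 406 without T64, 436 without T130, 501 without T131 and 1315 without T84. The part of sex, slide, session and keratinocyte content in the difference was not tested.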

How the data were processed

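RNA from 51 canine MCTs was hybridized, labeled with Cy3, to Agilent canine 4x44k arrays, and scanner output was deposited for each. Per the file headers, Feature Extraction 9.5.1.1 gave a background-subtracted processed signal, an intensity, for each spot. The authors also deposited a table of normalized intensities, whose log2 was used here as an alternative. The study's own test, SAM, was not run here, and limma stands in for it.

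Control spots and outlier-flagged spots were left out, and the remaining 43803 spots were averaged to 43603 probes. The log2 of each processed signal was taken, and the 51 arrays were then brought to a common distribution by quantile normalization. The 7 G2 and 6 G1 tumors were compared with limma 3.58.1 in R 4.3.3 (lmFit, eBayes, no covariate), with Benjamini-Hochberg adjustment over all probes. Exact two-sided permutation tests over 1716 assignments, whose smallest p is 0.000583, were run for 103 list genes without adjustment. Their p-values are printed only for KRT5, FCER1A and UBE2S, whose probes shown there missed the limma call. The p-values of the other list genes are not given, so those printed do not support a call. The limma adjusted p stands beside each one printed. Names came from the array annotation for 19248 probes, of which 2235 were updated by gene identifier through a RefSeq table, giving 11689 genes. The brightest probe stood for a gene in lists. Named genes, from probes well above background on at least 6 arrays, were the 10 with the smallest p in each direction, the study's markers, and from each list its first 4 genes and those with the largest and smallest difference. Genes named outside this rule are marked as such. The members and lists were chosen with earlier results of these data known. The Patnaik grades come from the study's table of reference tumors.

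Slide (8 for these tumors) and scan session (6) were tried as blocks, and sex and age as covariates. Each tumor is 1 dog, and the number of arrays limits the precision. On simulated data for 7 against 6 arrays and 43603 probes, 63 of 100 probes changed by a log2 value of 1 and 83 of 100 changed by 2 were found, and 14 unchanged probes were called. Figures were drawn with matplotlib 3.10.9.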

Additional observations from a re-analysis of the deposited data

Results flagged for a closer look

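A tumor was set apart where its gap to the nearest other tumor of its grade was large against the range of that grade. Of 180 gene groups 21 met this, and of 44 list groups 3, where chance gives about 1 in 20. The genes are not independent and some were picked by their difference, so these counts do not measure an excess over chance. T84 alone made 14 of the 21 gene flags. In G2, T84 was the highest tumor for KRT1 (14.71), KRT10 (13.69), KRT2 (12.41), KRTDAP (15.95), SPINK5 (13.10), CCL27 (10.57), CCL20 (7.02), KCTD4 (5.50), ITGB6 (3.94), PDZD2 (3.58) and ZNF281 (15.11). It was also the highest for ADIPOQ (11.18), a hormone of fat cells, and FEN1 (11.4), and the lowest for PHF21A (12.14).

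T130 was the lowest G2 tumor for the collagens COL1A1 (12.22) and COL3A1 (12.63) and the highest for IL16 (13.13). In G1, T101 was the lowest for SPINK5 (13.24) and, as the one male of that grade, the highest for JARID1D (10.43). T112 was the lowest G1 tumor for CIDEA (8.44) and for the mean of the adipocyte list (7.19) and of the smooth muscle and pericyte list (6.59). T62 was the lowest for CDC2 (5.93) and for the melanocyte list mean (5.53).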

How the results depend on the processing

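Of 662 called probes, none changed sign under any alternative planned for the normalization, background correction, filter, covariates, blocks or left-out tumors, and 68 did with the keratinocyte level as a covariate, which was added after seeing the data. The count of calls was 5 with sex, 5 with sex and age, 1 with slide and 1 with scan session as a fixed block, 12 with the keratinocyte level, and 1098 without the 3 G2 tumors with mitoses. Leaving out each tumor in turn gave 35 to 1315 calls. At other thresholds it was 6 (2-fold or more with an adjusted p below 0.01), 1286 (adjusted p under 0.1) and 5845 (unadjusted). The same linear model without limma's moderation of the variances gave 324 after adjustment and 5425 before. Other scalings, filters, the authors' table, age and slide as a random block gave 510 to 913. With 75th percentile scaling, 664 were lower and 35 higher. The median of the 577 probes called lower was -1.04 with normexp. The keratinocyte list median was -2.89 with normexp, -0.090 with the keratinocyte level as a covariate and -5.39 to -4.37 leaving out each tumor. The value near 0 was set in advance, since this covariate is the mean of the same 31 genes. Its levels were 10.49 to 11.57 in G1 and 4.58 to 7.80 in the G2 tumors other than T84. A fit can hardly separate such a covariate from grade. With that covariate the medians were 1.06 for proliferation, 0.90 for study markers, 0.95 for adipocyte, -0.55 for smooth muscle, 0.045 for prostaglandin and 1.16 for melanocyte genes. The endothelial median was 0.25 with slide or session as a fixed block. The cause of these shifts was not tested. Dim probes limit the size of the largest differences, since 108 probes called lower were above background on at most 1 G2 array. The grades share no tumor numbers to pair by, and the 4 slides that hold 1 tumor of each grade entered as the slide block above.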
